A study of Mus musculus with 6 samples.

Results

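Circadian clock genes were followed in mouse skin as a check on whether the 6 arrays of this study stood at the same point of the daily cycle. The 9 genes were chosen by name: Dbp, Tef, Per1, Per2, Per3, Nr1d1, Nr1d2, Arntl (now also called Bmal1) and Npas2. They are 9 of the 12393 genes named on the array, and 17 of its 22690 probe sets name 1 of them and no other gene. Of these 17, 9 probe sets of 8 genes reached a signal of 165, the median of all values, and all 9 did so on each of the 6 arrays. Both Npas2 probe sets stayed below it everywhere, with a highest signal of 76.9.

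Each C57BL/6 mouse had been given a pump under the skin, which ran for 7 days. Skin at the pump outlet was taken under TSLP (1 array), TGF-beta (2 arrays, from mouse 1 and mouse 2), IL-13 (1 array) and PBS (1 array, PBS local), and abdominal skin far from the outlet under PBS (1 array, PBS distal). TSLP is an epithelial cytokine acting on dendritic cells and lymphocytes, TGF-beta a regulator of matrix production, and IL-13 a cytokine of type 2 immunity. The sources used here give no hour of harvest, no age and no sex, and do not say whether the PBS pieces came from the same mouse. With 1 array in 4 of the 5 groups, the cytokine, the mouse and the hour of harvest cannot be told apart, and no error can be given where a group has 1 array. The TGF-beta pair alone shows a spread between mice.

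The clock is a feedback loop. The proteins of Arntl and of Clock or its relative Npas2 bind E-box sequences and switch on the Per and Cry genes, Nr1d1 and Nr1d2, and the output genes Dbp and Tef. PER and CRY proteins then shut off their own activators, while the receptors encoded by Nr1d1 and Nr1d2 repress Arntl and Npas2 through ROR elements, so that Arntl transcripts peak when those of Dbp and Nr1d1 are low. The loop runs in most skin cells, among them keratinocytes, fibroblasts and hair follicles.

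RefSeq start-site windows of build GRCm38.p6, from 250 bases before to 50 after a gene's start, were held for 8 of the 9 genes, in 11 windows. Both strands were searched for the E-box CACGTG, present in 7.15% of all 32851 windows, for the D-box TTATGTAA bound by DBP and TEF, in 0.938%, and for TAGGTCA, the core of a ROR element, in 2.61%. No motif overlapped another. Windows of 4 genes held a match. Those of Dbp, Nr1d1, Nr1d2 and Npas2 held none, and Per2 had no window. The share of all genes holding any match was not counted. The matches are shown because such elements are the sequences through which clock proteins act on clock genes. The bases before the start are printed 5′ to 3′, with the matches in capitals. They lie at chr11:69098699-69098948 on the plus strand for Per1, chr15:81802423-81802672 on the plus strand for Tef, chr4:151044666-151044915 on the minus strand for Per3 and chr7:113207531-113207550 on the plus strand for Arntl, where the match begins 30 bases after a start and only its surroundings are given.
Per1: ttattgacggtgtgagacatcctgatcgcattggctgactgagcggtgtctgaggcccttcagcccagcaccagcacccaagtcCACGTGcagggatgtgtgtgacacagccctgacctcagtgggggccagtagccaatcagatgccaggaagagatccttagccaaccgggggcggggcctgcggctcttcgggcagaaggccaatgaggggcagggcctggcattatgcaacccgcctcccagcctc
Tef: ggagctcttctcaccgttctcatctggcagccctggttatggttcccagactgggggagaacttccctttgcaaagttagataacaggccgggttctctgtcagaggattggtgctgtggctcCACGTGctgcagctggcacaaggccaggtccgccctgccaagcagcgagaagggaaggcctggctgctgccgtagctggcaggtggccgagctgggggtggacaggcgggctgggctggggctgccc
Per3: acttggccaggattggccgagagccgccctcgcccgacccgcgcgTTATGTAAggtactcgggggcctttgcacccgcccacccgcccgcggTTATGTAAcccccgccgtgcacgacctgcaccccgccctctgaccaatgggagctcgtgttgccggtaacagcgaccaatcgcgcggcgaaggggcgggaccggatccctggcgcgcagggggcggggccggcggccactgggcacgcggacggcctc
Arntl: aggcagaaagTAGGTCAggg
The Per1 E-box begins 166 bases before the start and the Tef E-box 127 bases before it. A second Tef window, at a start further along the gene, held an E-box 138 bases before its start. The Per3 window held 2 D-boxes, which begin 205 and 158 bases before the start. A match describes the letters of the window, and binding was not measured.

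Skin under TSLP had the highest signal of the 6 arrays for the output genes Dbp and Tef, for all 3 Period genes and for Nr1d2, and the lowest for their activator Arntl. This array was highest for 6 of the 8 measured clock genes, beside 18.9% of 7945 genes that reached the median signal on any array, and lowest for 1 of 8, beside 13.8%. No other array was highest for more than 2 of the 8, which were Nr1d1 and Arntl on the PBS local array. Differences below are in log2(signal + 27.4), a scale that understates the change of dim genes.

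**Figure D1:**
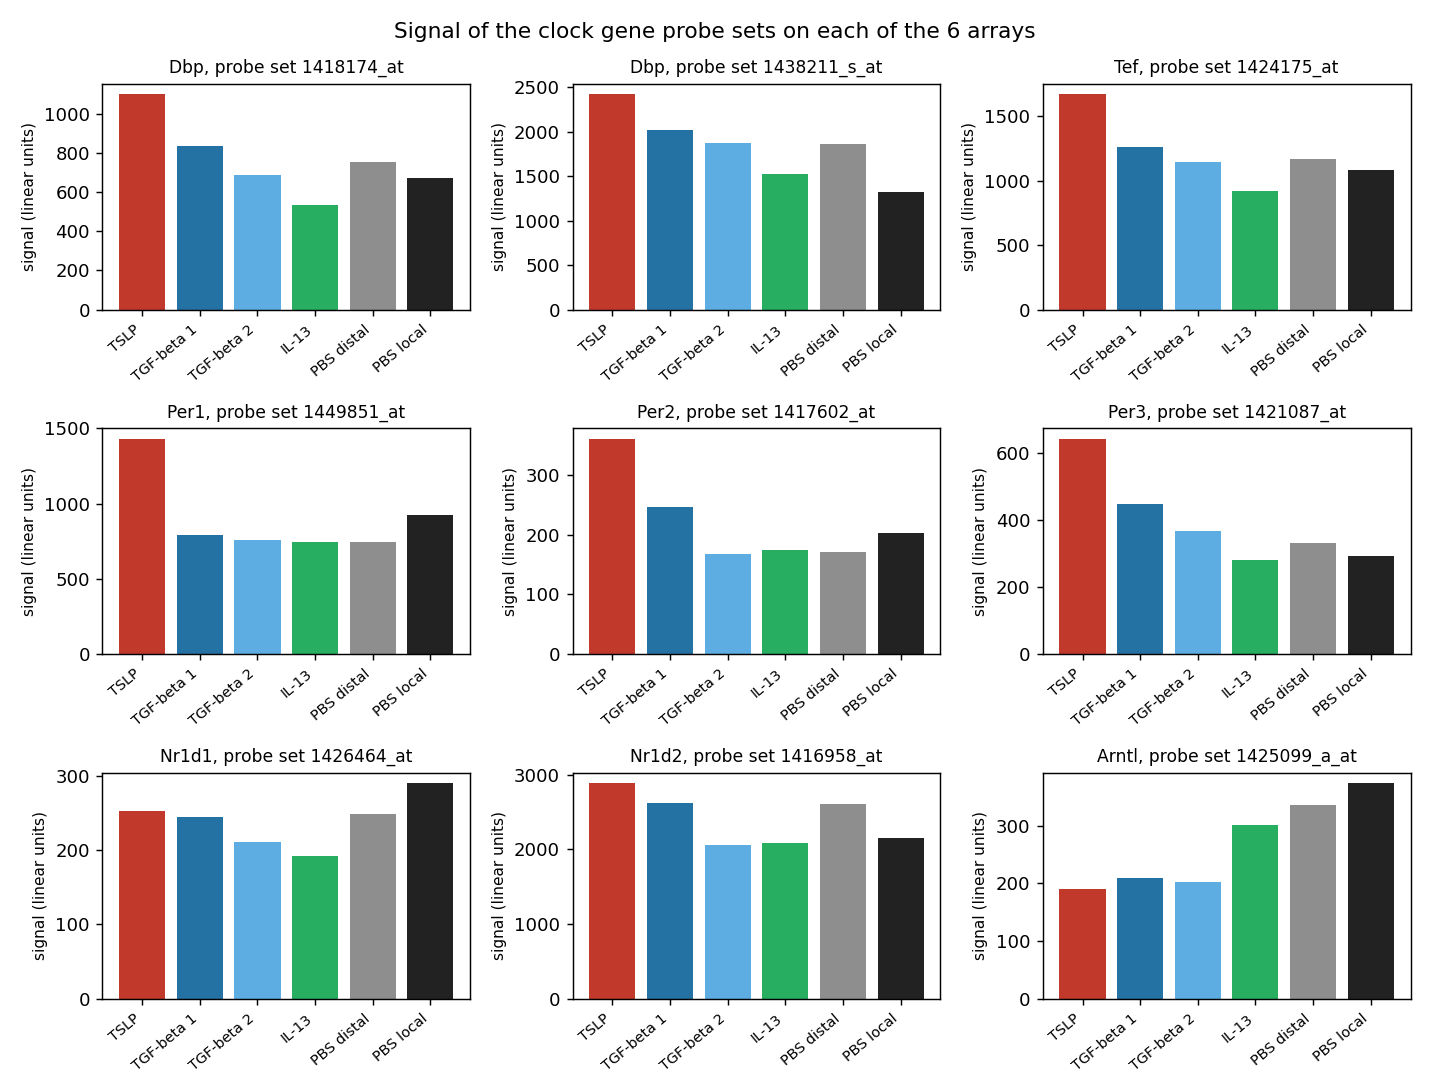
Linear signal (vertical axes, starting at 0) of the 9 probe sets above the median signal, 1 bar for each of the 6 arrays (1 array is 1 mouse skin sample, and no error bar can be drawn). The TSLP bar is the tallest in both Dbp panels and in the Tef, Per1, Per2, Per3 and Nr1d2 panels, and the shortest in the Arntl panel.

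Dbp encodes a PAR-bZIP transcription factor that carries the clock's rhythm to metabolic genes. Its brighter probe set, 1438211_s_at, had a signal of 2417 under TSLP, 2015 and 1877 in the TGF-beta mice, 1520 under IL-13, 1862 in PBS distal skin and 1325 in PBS local skin. The other, 1418174_at, had 1098, 833 and 685, 534, 754 and 670 on the same arrays. TSLP skin was highest in both probe sets. They parted on the IL-13 array, which lay above PBS local by 0.19 in the brighter probe set and at a difference of -0.31 from it in the dimmer. Differences of Dbp between IL-13 or TGF-beta skin and PBS local skin thus depend on the probe set, and the cause was not tested. The brighter one is of the s_at type, whose probes can bind more than 1 transcript. Against PBS local skin, TSLP skin was higher by 0.85 in the brighter and by 0.69 in the dimmer probe set.

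Tef, a relative of Dbp that binds the same D-box, had a signal of 1667 under TSLP, 1257 and 1147 in the TGF-beta mice, 920 under IL-13, 1163 in PBS distal skin and 1081 in PBS local skin. The TSLP value stood 0.40 above the next array, and the TGF-beta mice were 0.13 apart. The order below the TSLP array ran through TGF-beta mouse 1, PBS distal, TGF-beta mouse 2 and PBS local to IL-13, and neighbouring values around PBS distal were closer than the TGF-beta mice were to each other.

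Per1, a repressor of the loop that is also induced directly by glucocorticoids, had a signal of 1430 under TSLP, 791 and 756 in the TGF-beta mice, 748 under IL-13, 744 in PBS distal skin and 924 in PBS local skin. The TSLP array was 0.62 above the next highest, PBS local, while the other 5 arrays spanned 0.30 and the TGF-beta mice differed by 0.06. Per2, its paralogue, had 360 under TSLP, 246 and 168 in the TGF-beta mice, 175 under IL-13, 170 in PBS distal skin and 202 in PBS local skin. Here the TGF-beta mice were themselves 0.48 apart, about as far as the 0.50 that separated TSLP from mouse 1. Per3, the Period gene with D-boxes in the window above, had 641 under TSLP, 446 and 367 in the TGF-beta mice, 280 under IL-13, 332 in PBS distal skin and 294 in PBS local skin. It had the widest range of the 8 genes, 1.12, and both TGF-beta mice lay above both PBS arrays. The TGF-beta pair and the PBS pair did not overlap in 4 of the 8 genes (Dbp in its brighter probe set and Per3 higher, Nr1d1 and Arntl lower), beside 41.6% of all genes.

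The genes of the repressing receptors did not follow the same order. Nr1d2 had a signal of 2883 under TSLP, 2617 and 2060 in the TGF-beta mice, 2089 under IL-13, 2604 in PBS distal skin and 2149 in PBS local skin. Its TSLP value was 0.14 above the next array, less than the 0.34 between the TGF-beta mice. Nr1d1 had 252 under TSLP, 245 and 211 in the TGF-beta mice, 193 under IL-13, 248 in PBS distal skin and 290.0 in PBS local skin. TSLP skin was thus at a difference of -0.18 from PBS local skin for Nr1d1, against a gap of 0.19 between the TGF-beta mice. In RefSeq the Nr1d1 gene shares 1075 bases with Thra, on the opposite strand, and whether the probe set lies there was not tested.

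Arntl, the activator, had a signal of 191 under TSLP, 209 and 201 in the TGF-beta mice, 301 under IL-13, 335 in PBS distal skin and 373 in PBS local skin. The TSLP and TGF-beta arrays were the 3 lowest, at differences from PBS local of -0.88, -0.76 and -0.81, and the IL-13 and PBS arrays lay above them all. The TGF-beta mice were 0.04 apart. Both lay below the IL-13 and both PBS arrays, an arrangement found in 9.25% of the 7945 genes. Npas2, the partner of Arntl's protein in place of Clock, was dim, with a signal of 43.4 under TSLP, 62.7 and 47.9 in the TGF-beta mice, 75.9 under IL-13, 39.3 in PBS distal skin and 76.9 in PBS local skin in its brighter probe set. It was not tested.

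**Figure D2:**
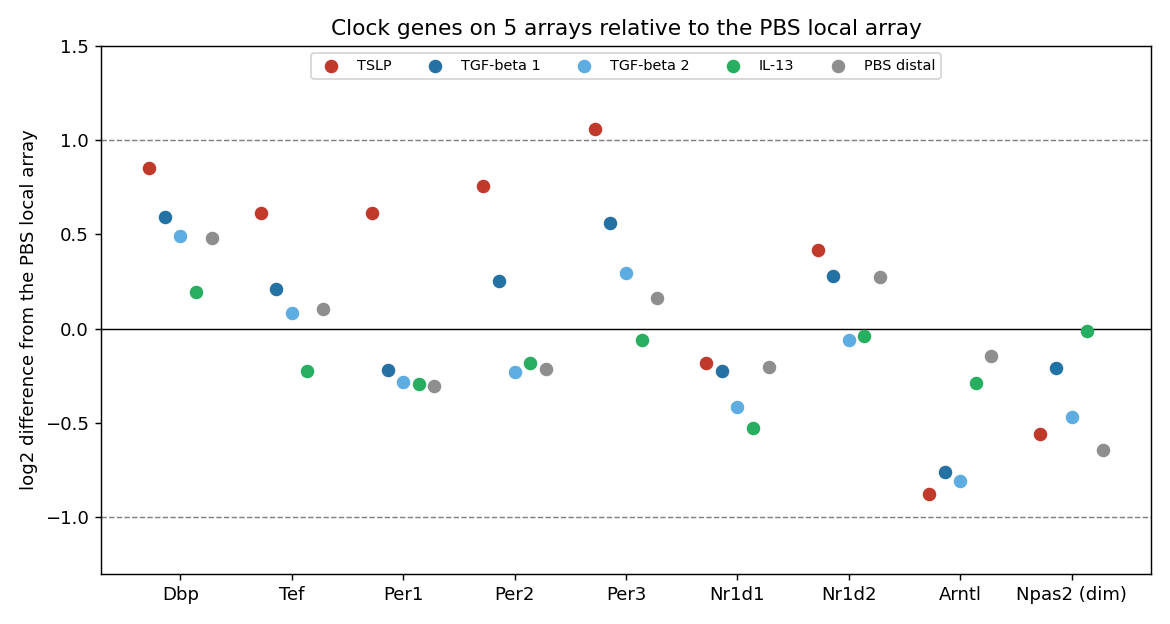
Difference from the PBS local array on the log2(signal + 27.4) scale (vertical axis) for the brightest probe set of each of the 9 genes, 1 point for each of the other 5 arrays, with dashed lines at 2-fold. The TSLP points are the highest plotted for Dbp, Tef, Per1, Per2, Per3, Nr1d1 and Nr1d2. They reach 1.06 for Per3 but lie below PBS local for Nr1d1, at -0.18. For Arntl the TSLP point is the lowest at -0.88, and the TGF-beta points lie close by.

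Set against PBS local skin, TSLP skin had 6 of the 8 measured clock genes at a positive difference, beside 48.7% of 7614 genes, and a median difference of 0.61, beside -0.01 over all genes. Per3 was higher by 1.06, Dbp by 0.85, Per2 by 0.75, Per1 by 0.62, Tef by 0.61 and Nr1d2 by 0.42, while Arntl was at -0.88. A 2-fold difference was reached by 1 of the 8 (Per3, higher), beside 1.44% of all genes in either direction. With the mean of all probe sets of a gene in place of the brightest, Per3 was at 0.58 and Per2 at 0.21, and 0 of the 8 were 2-fold apart. Per3 was the 65th highest of the 7614 genes, Dbp the 104th and Per2 the 143rd, and Arntl was the 61st lowest. This comparison rests on 1 array a group and has no replicate check. Against PBS distal skin instead, the differences were 0.37 for Dbp, 0.51 for Tef, 0.92 for Per1, 0.97 for Per2, 0.90 for Per3, 0.02 for Nr1d1, 0.15 for Nr1d2 and -0.73 for Arntl.

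**Figure D3:**
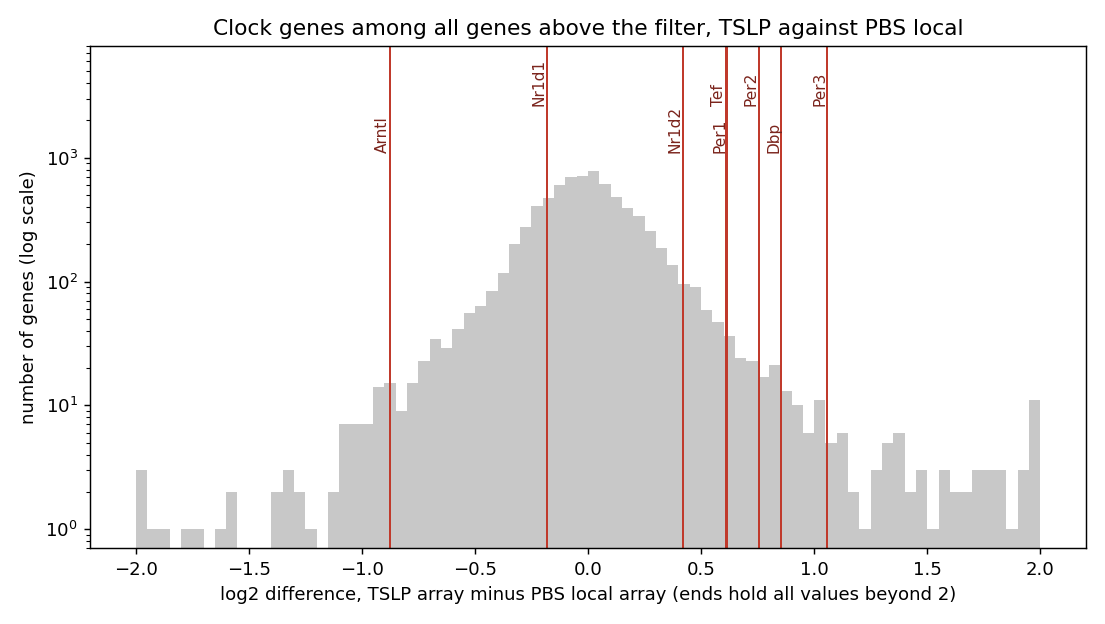
Number of genes (vertical axis, log scale) by their log2 difference between the TSLP and the PBS local array (horizontal axis), for the 7614 genes above the filter, with lines at the 8 measured clock genes. Per1, Tef, Per2, Dbp and Per3 lie in the right tail, Arntl lies in the left tail, and Nr1d1 lies near the middle at -0.18.

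TGF-beta skin had low Arntl signals, as the TSLP array did. Against PBS local skin, Arntl was at -0.78 (SE 0.19) over the 2 mice, lower in both, with an adjusted p of 0.864 and an unadjusted p of 0.0147 in limma. Dbp was at 0.54 (SE 0.16, adjusted p 0.864), but its dimmer probe set gave 0.30 in mouse 1 and 0.03 in mouse 2. Per3 was at 0.43 (SE 0.19), Tef at 0.15, Nr1d2 at 0.11, Per2 at 0.01, Per1 at -0.25 and Nr1d1 at -0.32. Against PBS distal skin Arntl was at -0.64, Per3 at 0.27 and Dbp at 0.06, and the sign turned for Per1 (0.05) and Nr1d2 (-0.16). Of the 8 genes 0 passed limma's threshold and 0 were 2-fold apart in both mice, beside 0% and 0.336% of all 7741 genes, of which 355 had an unadjusted p under 0.05. The only replicates in this test were the 2 TGF-beta mice, with 1 residual degree of freedom. limma moderated each gene's spread towards a trend over all genes, with 3.13 prior degrees of freedom. The SE is thus not the spread between the mice: for Arntl the pair's SD was 0.03.

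Set against TSLP skin in a separate fit, TGF-beta skin had all 7 of the Dbp, Tef, Per and Nr1d genes at a negative difference. Of all 7763 genes, 43.6% were at a positive difference. The TSLP array was already the highest for each of the 7 except Nr1d1, which fixed the sign of the others in advance. Their median was -0.46, beside -0.04 over all genes. Per1 was at -0.86 (SE 0.16), Per2 at -0.74 (SE 0.31), Per3 at -0.63 (SE 0.19) and Tef at -0.46 (SE 0.17), whereas Arntl was at 0.09 (SE 0.19). None of these passed limma's threshold. The adjusted p was 0.676 for Per1, Per3 and Tef and 0.696 for Per2, with an unadjusted p of 0.00483 for Per1, and 568 of all genes had an unadjusted p under 0.05. Again 0 of the 8 genes were called, beside 0% of all genes, and 0 were 2-fold apart in both mice, beside 0.683%. Set against IL-13 skin, TGF-beta skin had all 7 at a positive difference, beside 56.7% of all 7674 genes. Their median was 0.21, beside 0.03 over all genes, and Arntl was at -0.50. Without mouse 1, Per2 was at -0.05 and Nr1d2 at -0.02 there, and the other 5 stayed positive. Between these groups limma called 0 of 8, beside 0% of all genes and 179 genes at an unadjusted p under 0.05, and 0 were 2-fold apart, beside 0.456%.

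IL-13 skin lay at or below PBS local skin in most of these genes. Its differences from PBS local were -0.23 for Tef, -0.30 for Per1, -0.18 for Per2, -0.06 for Per3, -0.53 for Nr1d1, -0.04 for Nr1d2 and -0.29 for Arntl, with Dbp at 0.19 in its brighter probe set. Thus 1 of 8 was positive, beside 39.8% of 7562 genes, and 0 were 2-fold apart, beside 1.53%. Against PBS distal skin the sign turned for Dbp (-0.29), Per1 (0.01) and Per2 (0.03). Against TSLP skin, IL-13 skin was lower in every one of the 7 genes of the Arntl-driven arm. Of all 7558 genes, 41.2% were higher. The TSLP array was already the highest for each of the 7 except Nr1d1, so those signs were fixed in advance. The median of the 7 was -0.84, beside -0.06 over all genes. They ran from -0.35 for Nr1d1 to -1.12 for Per3, with Dbp at -0.66, Tef at -0.84, Per1 at -0.91 and Per2 at -0.94. Arntl was at 0.59. Per3 was the 40th lowest of 7558 genes, and 1 of 8 genes (Per3) was 2-fold apart, beside 1.38% of all genes. These pairs hold 1 array on each side.

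Between distal and outlet skin under PBS, 0 of the 8 clock genes were 2-fold apart, beside 4.29% of 7617 genes. Dbp was higher in distal skin by 0.48 and Nr1d2 by 0.27, Per3 was at 0.16, Tef at 0.10, Arntl at -0.14, Nr1d1 at -0.20, Per2 at -0.22 and Per1 at -0.30, with a median of -0.02 beside -0.01 over all genes. The dim gene Npas2 was at -0.64 in its brighter probe set. Its other probe set was at 0.81, with signals of 28.1 in distal and 4.16 in outlet skin.

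As a summary of the 2 arms of the loop, the mean difference of Arntl and Npas2 from PBS local was subtracted from that of the other 7 genes. The 7 did not all move together, with Nr1d1 at -0.18 under TSLP, so the index is no measure of clock time. This index was 1.31 under TSLP, 0.70 and 0.62 in the TGF-beta mice, -0.01 under IL-13 and 0.44 in PBS distal skin. Its parts differed between arrays. Under TSLP the 7 genes were at a mean of 0.59 and the activators at -0.72, whereas in the TGF-beta mice the 7 genes were at 0.21 and -0.02 and the activators at -0.49 and -0.64. In PBS distal skin nearly all of the index came from the activators, at -0.39. Of these Npas2 is dim, and its other probe set, not used in the index, had the opposite sign there. With Arntl alone as the activator the index was 1.47 under TSLP, 0.97 and 0.79 in the TGF-beta mice, 0.12 under IL-13 and 0.19 in PBS distal skin. The TSLP array had the highest index in either form.

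**Figure D4:**
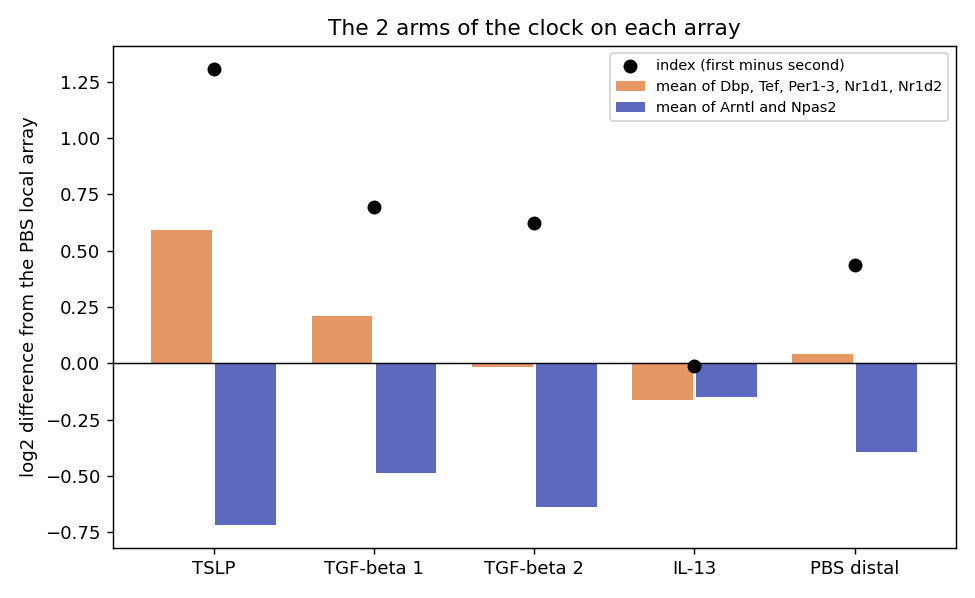
Mean log2 difference from the PBS local array (vertical axis) of the 7 Arntl-driven genes and of the 2 activators (bars, starting at 0), with their difference, the index (points), for the other 5 arrays. The index is 1.31 for TSLP, 0.70 and 0.62 for the TGF-beta mice, 0.44 for PBS distal and -0.01 for IL-13.

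Other genes of the loop were set beside these. Of 14 further clock genes, 11 had a probe set of their own and 8 passed the filter between TSLP and PBS local skin. Of these, 6 were positive, beside 48.7% of all genes, and 0 were 2-fold apart, beside 1.44%, with a median of 0.14 beside -0.01. Cry1 was below the filter on both arrays, with a signal of 157 under TSLP and 118 in PBS local skin, and is not among the 8. Cry2, a partner of the PER proteins, had a signal of 433 under TSLP, 294 and 228 in the TGF-beta mice, 265 under IL-13, 283 in PBS distal skin and 316 in PBS local skin, so that TSLP was highest, by 0.42 over PBS local. Hlf, the remaining PAR-bZIP gene, was at 0.38 and the E-box repressor Bhlhe40 at 0.41 under TSLP. Clock was at -0.06, the kinase gene Csnk1d at -0.05, Rora at 0.04 and Nfil3, whose protein represses through D-boxes, at 0.07. Bhlhe40 was also at 0.44 under IL-13, where Per1 was at -0.30. Hlf was at 0.44 in PBS distal skin, above its TSLP value, at 0.34 under IL-13, and at 0.26 and -0.18 in the TGF-beta mice. Of 8 genes known to be under clock control in many tissues, 7 passed the filter, of which 4 were positive and 0 were 2-fold apart, with a median of 0.10, beside the same shares and median of all genes. The kinase gene Wee1 was at 0.42, Nampt, an enzyme of NAD synthesis, at 0.38, Tsc22d3 at 0.52, Usp2 at -0.14 and Cdkn1a at -0.22.

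Glucocorticoids also induce Per1, so 8 genes they induce were set beside it. Under TSLP 5 of the 8 were positive against PBS local, beside 48.7% of all genes, and 0 were 2-fold apart, beside 1.44%, with a median of 0.32 beside -0.01. Ddit4 was at 0.94, Dusp1 at 0.91 and Tsc22d3 at 0.52, but Fkbp5 was at -0.23 and Pdk4 at -0.39. The summed signal of the list was 23039 under TSLP, 19902 and 20662 in the TGF-beta mice, 20437 under IL-13, 19841 in PBS distal skin and 19789 in PBS local skin. Their part in the Per1 difference was not tested. Under IL-13 Fkbp5 was at -1.12 and Pdk4 at -1.33, but Dusp1 was at 0.69, with 4 of the 8 positive, beside 39.8% of all genes. Per1 was at -0.30 on that array. Ddit4 was at 0.49 and 0.77 in the TGF-beta mice, where Per1 was at -0.22 and -0.28.

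**Figure D5:**
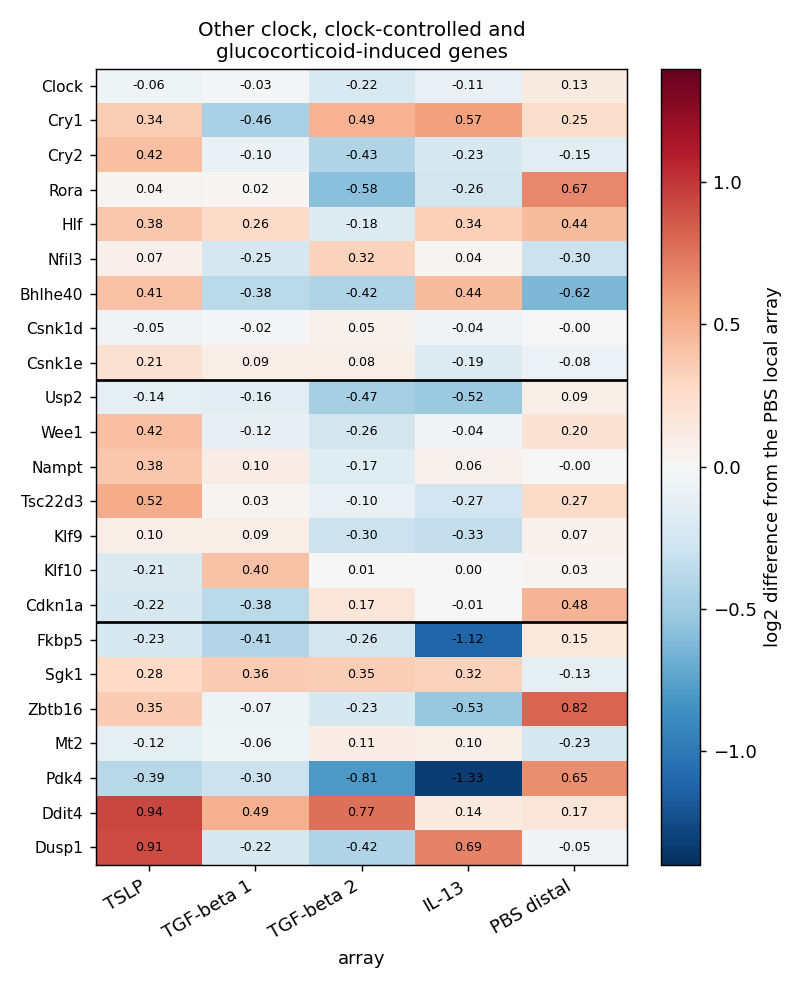
Log2 difference from the PBS local array (colour and printed value) of the further clock genes, the clock-controlled genes and the glucocorticoid-induced genes that reached the median signal (rows, lists separated by lines, Tsc22d3 shown once), on the other 5 arrays (columns). Under TSLP Cry2 is at 0.42, Wee1 at 0.42 and Ddit4 at 0.94, while Clock is at -0.06.

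The arrays differed in cell type markers as well. All 7 keratinocyte markers were measured on this skin, with a summed signal of 46091 under TSLP, 51240 to 60037 in the TGF-beta mice, 53637 under IL-13, 71051 in PBS distal skin and 54947 in PBS local skin. The 5 fibroblast markers summed to 37198 under TSLP and 44059 in PBS local skin, and the 7 skeletal muscle markers to 58164 and 69220. The 8 hair follicle markers summed to 207 under TSLP and 201 in PBS local skin, against 36544 in TGF-beta mouse 2 and 268 in mouse 1, while the pair's Arntl values lay 0.04 apart. The 5 measured of 6 exocrine pancreas markers summed to 5809 under TSLP, 576 and 4649 in the TGF-beta mice, 6612 under IL-13, 310 in PBS distal skin and 1970 in PBS local skin, and the 5 neutrophil markers to 6127, 7070 and 6919, 10840, 776 and 4464 on the same arrays. The 4 measured of 6 adipocyte markers summed to 17713 under TSLP, 20777 and 18321 in the TGF-beta mice, 15951 under IL-13, 21237 in PBS distal skin and 16366 in PBS local skin. Of these, 3 were positive under TSLP against PBS local, beside 48.7% of all genes (median 0.37). Lep was at 0.72, Adipoq at 0.45 and Cidec at 0.30, but Fabp4 was at -0.04. Under IL-13 against TSLP 2 were 2-fold lower, beside 1.38% of all genes in either direction (median -0.95). The 4 endothelial markers summed to 2008 under TSLP, 2463 and 1572 in the TGF-beta mice, 1333 under IL-13, 867 in PBS distal skin and 1675 in PBS local skin. All 4 were positive under TSLP against PBS local (median 0.18), beside 48.7% of all genes. All 4 were negative under IL-13 against TSLP (median -0.58), where 41.2% of all genes were positive. Other types went the other way. Under TSLP against PBS local 6 of 7 keratinocyte and 5 of 5 fibroblast markers were negative (medians -0.20 and -0.30). Under IL-13 against TSLP all 7 and all 5 were positive (medians 0.12 and 0.46). In bulk skin a change in the number of cells of a type and in transcript per cell cannot be told apart, and the part of cell makeup in the differences of the clock genes was not tested. Array medians ran from 160 to 171. The Actb 3′/5′ signal ratio ran from 1.13 in PBS local, the reference array, to 1.25, with TSLP at 1.19. PBS local also had the lowest Gapdh 3′/5′ ratio, 0.75, with TSLP at 0.78 and the highest, TGF-beta mouse 2, at 0.84.

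The pattern of each gene over the 6 arrays was set beside that of Dbp. As the root mean square gap between log2 profiles centred over the 6 arrays, Tef lay 0.149 from Dbp, Nr1d2 0.175 and Per3 0.178, whereas Per2 was at 0.272, Per1 at 0.308, Nr1d1 at 0.332 and Arntl at 0.594. Among 7937 other genes, 10 were nearer than Tef, 33 nearer than Nr1d2 and 36 nearer than Per3, while 2971 were nearer than Per1. Of the 1213 other genes that ranged over at least 1 on the log2 scale, 0 were nearer than Tef, Nr1d2 or Per3. In that set 6 were nearer than Per2 and 18 nearer than Per1. The clock genes were not held to this limit: Dbp ranged over 0.85, Tef over 0.84 and Nr1d2 over 0.48. Every gene nearer than Tef, Nr1d2 or Per3 had been removed by the limit, so the 0 does not set the clock genes apart. The nearest of the 1213 were Mepce (0.206), Ifit3 (0.225), Gdap10 (0.229), Uba7 (0.258), Rcan2 (0.269), Ptger3 (0.272), Adamtsl4 (0.276) and Samhd1 (0.278). Ifit3 had a signal of 1273 under TSLP, 965 and 748 in the TGF-beta mice, 991 under IL-13, 1080 in PBS distal skin and 607 in PBS local skin. All points share the same 6 arrays, so these distances describe them only.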

How the data were processed

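Biotin-labelled total RNA of 6 skin samples was measured on single-colour Affymetrix arrays. The authors deposited 1 linear intensity for each probe set on each array. These came from MAS5, as the submitters' processing notes name it, with no version given in the sources used here. Arrays came at a common trimmed mean (2% left out at each end) and were scaled to its mean, then taken as log2(signal + 27.4), the offset being the 25th percentile of all values. Of 22690 probe sets, 20380 name 1 gene, 691 several, 1555 none here and 64 are controls. RefSeq GRCm38.p6 gave the current symbols of 20351. Each gene was represented by its brightest probe set (mean log2 value). A gene entered a comparison if 1 compared array reached 165, the median. TGF-beta was tested with limma 3.58.1 (R 4.3.3, eBayes with an intensity trend, 5 groups, Benjamini-Hochberg over all genes, threshold 0.05). Each comparison was fitted anew on the genes passing its filter, and every adjusted p is from these fits. Each gene's spread was moderated towards that of all genes. The single arrays set against TGF-beta were taken to vary like its mice. Other pairs had 1 array each and were described by size, with 2-fold as the limit. The number of arrays limits precision. The members, the lists and the rule for named genes were chosen with earlier results of these data known. The rule covered all members, the lists' genes and the 8 nearest to Dbp among other genes ranging over at least 1. Some genes of the lists are not reported here. In all, 0 per-sample columns were left unused.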

Additional observations from a re-analysis of the deposited data

How the results depend on the processing

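In the TGF-beta comparisons, differences of single clock genes kept the direction they are reported with under quantile normalization, a lower offset (6.21), a higher offset (165), no filter on dim genes and the mean of all probe sets, except Nr1d2 between TGF-beta and IL-13 skin, at -0.11 with the mean of all probe sets. In the pairs of single arrays the same held except between IL-13 and PBS local skin, where the mean of all probe sets gave -0.06 for Dbp and 0.19 for Nr1d2, and quantile normalization gave 0.03 for Per3. The causes were not tested. With the mean of all probe sets, Per2 and Per3 stayed below the filter in comparisons without the TSLP array and have no value there. limma called 0 of the clock genes in each TGF-beta comparison under all of these, and 0 in the pairs of single arrays with the TGF-beta spread borrowed. Without either TGF-beta mouse, 0 clock genes were 2-fold apart in any TGF-beta comparison, and Per2 against PBS local was at -0.23 without mouse 1 and at 0.25 without mouse 2. Without mouse 1, Nr1d2 was at -0.06 against PBS local, and against IL-13 Per2 was at -0.05 and Nr1d2 at -0.02. The 1 gene 2-fold apart between TSLP and PBS local skin became 0 with the higher offset, with the mean of all probe sets and, chosen after seeing the data, with PBS distal as the control. Between IL-13 and TSLP skin the 1 became 2 with the lower offset and 0 with the higher offset and with the mean of all probe sets.

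The index relative to PBS local, in the order TSLP, TGF-beta mouse 1, TGF-beta mouse 2 and PBS distal, was 1.45, 0.76, 0.72 and 0.55 with the lower offset, 0.91, 0.48, 0.37 and 0.23 with the higher offset, and 1.02, 0.34, 0.47 and 0.10 with the mean of all probe sets, where IL-13 was at -0.076. As alternatives chosen after seeing the data, Arntl alone gave 1.47, 0.97, 0.79 and 0.19 with IL-13 at 0.12, and leaving out Nr1d1 gave 1.44, 0.77 and 0.69 for TSLP and the TGF-beta mice and 0.047 for IL-13. TSLP was highest in each. No paired analysis was possible because the labels number only the TGF-beta mice. With 1 array in 4 groups, no depth or spread of those groups can be given.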

Other observations

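The 8 probe sets of the clock genes that stayed below the median signal on every array did not all follow the brighter ones. A dim Tef probe set had a signal of 62.2 under TSLP, 48.5 and 36.5 in the TGF-beta mice, 33.5 under IL-13, 57.8 in PBS distal skin and 24.9 in PBS local skin, so that TSLP was again highest. A dim Per2 probe set had 23.1 under TSLP, 16.0 and 19.9 in the TGF-beta mice, 15.8 under IL-13, 43.6 in PBS distal skin and 36.3 in PBS local skin, with TSLP below both PBS arrays. Values this low lie near or under the offset of the log2 scale.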
